A study of Mus musculus with 64 samples.

Results

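Mouse pancreatic tumor clones of 2 metabolic groups were compared after 48 h of coculture with fibroblasts, and each gene was read against the same clones grown alone. Group 1 held clones E, H and V and group 2 held clones K, M, N and T, as the study named them from metabolite levels. The coculture comparison used 28 of the 64 libraries of the series, 12 from group 1 and 16 from group 2, and the 28 mono-culture libraries of the same 7 clones served as the reference. The other 8 libraries came from KPC1, a line that belongs to neither group. All 7 clones were subcloned from 1 line of a single tumor of a mouse with a mutant Trp53 allele and Pdx1-Cre, in which a pancreatic promoter drives Cre, and the strain background was C57BL/6 mixed. Each clone is 1 cell line, and the labels do not say whether its 4 libraries per culture came from separate cultures, so the counts of a clone were summed and the clone was the unit (n = 3 against n = 4). Tumor cells were recovered from the coculture by a GFP sort. Neither the source of the fibroblasts nor any sort of the mono-cultures is stated in the labels, so contact, sorting and fibroblast RNA carried through the sort cannot be told apart.

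Pancreatic ductal adenocarcinoma grows in a dense stroma in which fibroblasts supply matrix, growth factors and metabolites to the tumor cells. Tumor cells read such signals through receptor pathways, among them TGF-beta and its SMAD transcription factors, collagen receptors such as the discoidin domain kinases, and Eph receptors that bind ephrins on a neighboring cell. Contact can also shift lipid synthesis, which the SREBP transcription factors control. Libraries held 11661214 to 21333683 counts, an overlapping range in both groups and both cultures.

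The clones carried ductal keratins, with Krt8 at 316 to 1359 and Krt19 at 116 to 455 CPM (counts scaled to the size of the library) over the 7 coculture sums. Krt7, another ductal keratin, was low, at 0.64 to 8.51 CPM. Epcam, another epithelial surface marker, was at most 0.115 CPM in coculture, and Cdh1, the epithelial cadherin, ran from 0.79 to 278 CPM. Of 8 immune markers, 3 had no count in any coculture library, and Cd68 was the only one above 1 CPM in a clone. The 4 defining fibroblast markers, Dcn, Fap, Postn and Thy1, summed to at most 0.0607 CPM in mono-culture, where Thy1 had no count. In coculture their sum was 60.3 (E), 68.9 (H) and 59.7 CPM (V), against 92.8 (K), 72 (M), 93.1 (N) and 82.3 (T). Every group 2 clone was above every group 1 clone, and the mean log2 difference (group 1 minus group 2) was -0.43 (two-sided exact permutation test over 35 splits, p = 0.0571, smallest possible 0.0286). This order rested on Postn. Without it the clones overlapped, at 17.4 (E), 22 (H) and 16.1 CPM (V) against 17.8 (K), 19.9 (M), 26.8 (N) and 25 (T), and the difference was -0.27 (exact permutation test, p = 0.257). Without Dcn clone H also stood above M. Over the whole list of 20 fibroblast markers, many of which the clones express when grown alone, the summed level differed by -0.08 (exact permutation test, p = 0.914), and Acta2, the smooth muscle actin of myofibroblasts, stood at 11.1 to 27.4 in group 1 and 5.68 to 16.4 in group 2. Single libraries ran from 14.9 CPM in the first V library to 155 in the third K library, and the library numbered 1 was the lowest in every clone but T. In bulk libraries fewer fibroblasts and less RNA per fibroblast cannot be told apart, and the part of the carried RNA in the results was not tested.

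Only 1 gene differed between the groups in coculture at an adjusted p under 0.1, and its clones were already apart when grown alone. This gene was Cd34 (chr1:194938819-194961279, plus strand, GRCm38), a sialomucin of stem, endothelial and stromal cells. In coculture it stood at 2.23 (E), 3.51 (H) and 2.76 (V) CPM, and at 45.9 (K), 45.9 (M), 75.1 (N) and 67.6 (T). In mono-culture it stood at 0.13 (E), 0.306 (H) and 0.395 (V), and at 19 (K), 27.5 (M), 56.9 (N) and 61.5 (T). The groups were apart in both cultures, and the single libraries were apart as well. The coculture log2 fold change of group 1 against group 2 was -4.37 ± 0.31 (SE) (edgeR quasi-likelihood test, adjusted p = 0.0118). On the log2 scale all 3 group 1 clones rose by more than any group 2 clone, so the log2 difference narrowed (interaction 2.75 ± 0.37 (SE), edgeR adjusted p = 0.346). In CPM the difference widened, from group means of 0.277 and 41.2 to 2.84 and 58.6. The group 1 log2 responses started from only 9 (E), 19 (H) and 26 (V) counts in mono-culture. The single call was 0.00679% of the 14737 genes tested. Unadjusted p values fell under 0.05 for 1263 genes (8.57%). In mono-culture no gene was called, with 801 genes under an unadjusted 0.05. DESeq2 on the same sums called 193 genes in coculture and 125 in mono-culture, and with clone E left out edgeR called 19 in coculture and 189 in mono-culture. Without clone V edgeR called none in coculture.

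The response to fibroblasts differed between the groups for 1 gene at an adjusted p under 0.1, again 0.00679% of those tested. This was Adamts9 (chr6:92772699-92943492, minus strand, GRCm38), a secreted protease that cleaves proteoglycans of the matrix. In mono-culture it stood at 43.6 (E), 80.6 (H) and 91.7 (V) CPM, and at 44.9 (K), 74.8 (M), 20.3 (N) and 12.3 (T). In coculture it stood at 10.8 (E), 24.8 (H) and 22.6 (V), and at 31.9 (K), 67 (M), 15.1 (N) and 9.72 (T). It fell in all 7 clones, by 1.70 to 2.02 on the log2 scale in group 1 and by 0.16 to 0.49 in group 2, and the 2 ranges did not touch. The difference in response was -1.55 ± 0.15 (SE) (edgeR, adjusted p = 0.0696). The clones of the groups overlapped in either culture, so Adamts9 did not separate them after contact. No gene was called for the response without clone H, V, K or N, and DESeq2 called 190 genes for the difference in response.

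**Figure D1:**
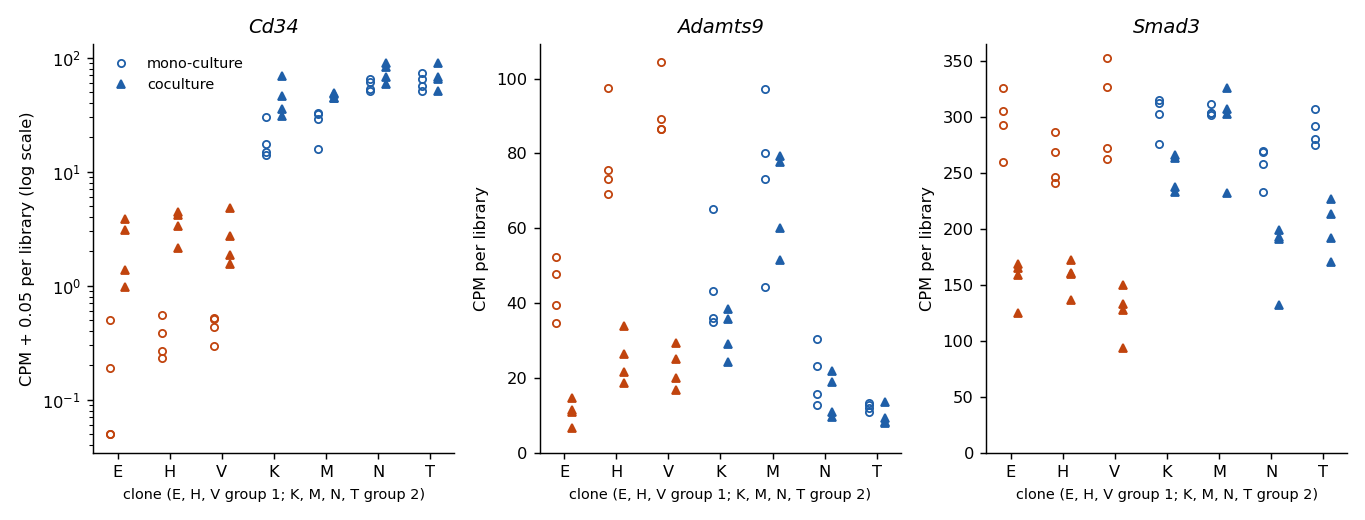
CPM of Cd34 (log scale, 0.05 added), Adamts9 and Smad3 in every library of the 7 clones, with open circles for mono-culture, filled triangles for coculture, orange for group 1 and blue for group 2. The Cd34 libraries of the groups never meet, Adamts9 drops most in E, H and V, and Smad3 starts level and ends lower in group 1.

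The clones of the 2 groups did not overlap for 1352 genes in coculture (9.17% of 14737), 674 higher and 678 lower in group 1, against 791 genes in mono-culture (5.37%). Of the 1352 genes, 112 higher and 163 lower were already apart in the same direction in mono-culture and 1 in the opposite direction. The other 1076 overlapped in mono-culture, and 986 of them reached 0.5 CPM in at least 1 clone there. For 111 of these 986 the difference in response had an unadjusted p under 0.05, 53 higher and 58 lower in group 1 (0.753% of genes tested). These are called contact-only genes here. None passed the adjustment over all genes in either edgeR test, and none kept the groups apart across all 28 single libraries, where 41 genes of any kind did so (0.278%). Over all genes 1128 (7.65%) were under that interaction threshold.

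The group means of contact-only genes mostly moved the same way, and further in group 1, while single group 2 clones often did not follow. Where a gene that missed the adjusted test is said to rise or fall, the words describe the clone values. Among the 53 higher genes the group 1 mean rose in 52 and the group 2 mean in 44. All 3 group 1 clones rose for 50 and all 4 group 2 clones for 25. Their median response was 0.63 in group 1 and 0.18 in group 2 on the log2 scale. Among the 58 lower genes the group 1 mean fell in 53 and the group 2 mean in 46. All 3 group 1 clones fell for 51 and all 4 group 2 clones for 21. The median response was -0.93 in group 1 and -0.21 in group 2. Over all genes tested the medians were 0.02 and 0.01. These values chose the genes and are a description. The distances were small. Between the nearest clones of the 2 groups the median gap was 0.13 for the higher and 0.12 for the lower genes on the log2 scale. Clone T was the group 2 clone nearest to group 1 for 34 of the 53 and for 34 of the 58.

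**Figure D2:**
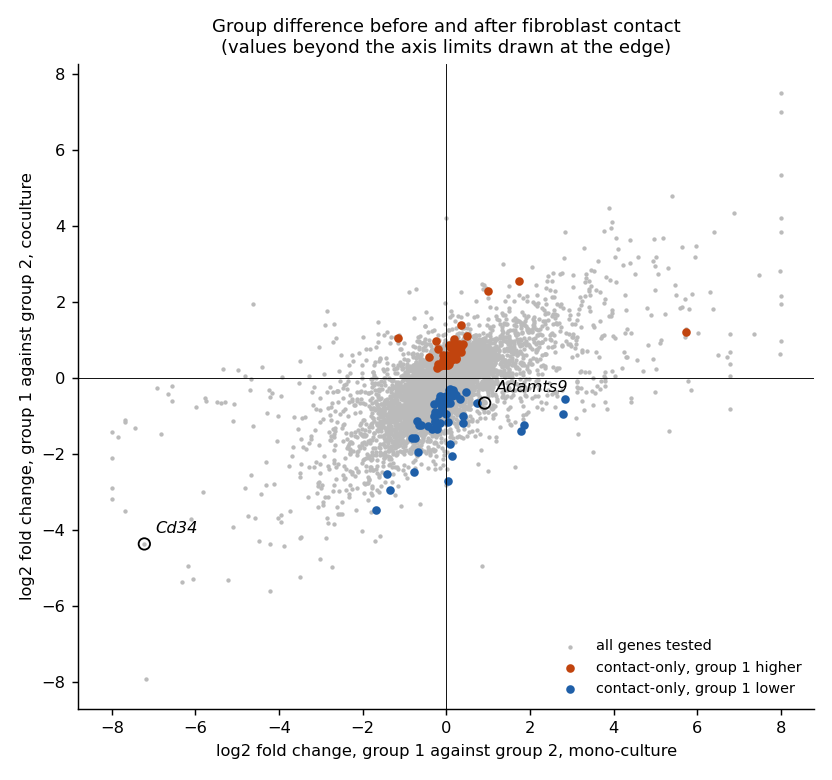
Log2 fold change of group 1 against group 2 in mono-culture (x axis) and in coculture (y axis) for 14737 genes, with the 111 contact-only genes in color and Cd34 and Adamts9 ringed. The contact-only genes lie near 0 on the x axis, with medians of 0.10 and -0.08, and spread along the y axis, with medians of 0.56 and -0.89.

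The 3 higher and 3 lower contact-only genes with the widest gap among those named were Nampt, Ecsit and Mei4, and Heg1, Zmiz1 and Ak1. Their promoters are shown as a description, and whether these genes are regulated together was not tested. Each line holds the 250 bases before the start of the first RefSeq promoter entry (GRCm38.p6), and capitals mark a match on either strand to the AP-1 (TGANTCA), TEAD (CATTCC), E-box (CACGTG) or RBPJ (TGGGAA) motif.
Nampt, chr12:32820085-32820334, plus strand: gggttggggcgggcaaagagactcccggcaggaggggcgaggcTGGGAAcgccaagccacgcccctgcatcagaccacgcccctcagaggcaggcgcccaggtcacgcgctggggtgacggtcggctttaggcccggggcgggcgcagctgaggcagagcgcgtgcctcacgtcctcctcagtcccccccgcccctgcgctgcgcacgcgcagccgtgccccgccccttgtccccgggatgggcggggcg
Ecsit, chr9:22085428-22085677, minus strand: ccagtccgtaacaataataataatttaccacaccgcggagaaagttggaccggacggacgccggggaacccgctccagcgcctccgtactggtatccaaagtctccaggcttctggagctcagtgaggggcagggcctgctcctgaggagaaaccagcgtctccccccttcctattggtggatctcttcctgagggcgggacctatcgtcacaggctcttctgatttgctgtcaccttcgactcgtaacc
Mei4, chr9:81863420-81863669, plus strand: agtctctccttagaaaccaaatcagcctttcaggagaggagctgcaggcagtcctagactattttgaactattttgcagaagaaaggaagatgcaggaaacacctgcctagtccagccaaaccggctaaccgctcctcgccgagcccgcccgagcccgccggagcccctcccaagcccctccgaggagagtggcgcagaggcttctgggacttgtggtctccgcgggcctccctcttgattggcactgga
Heg1, chr16:33684216-33684465, plus strand: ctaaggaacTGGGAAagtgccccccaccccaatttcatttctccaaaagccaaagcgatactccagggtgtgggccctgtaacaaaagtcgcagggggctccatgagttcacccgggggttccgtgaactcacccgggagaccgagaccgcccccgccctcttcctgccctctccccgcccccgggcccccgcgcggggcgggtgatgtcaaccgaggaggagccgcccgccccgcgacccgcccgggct
Zmiz1, chr14:25458935-25459184, plus strand: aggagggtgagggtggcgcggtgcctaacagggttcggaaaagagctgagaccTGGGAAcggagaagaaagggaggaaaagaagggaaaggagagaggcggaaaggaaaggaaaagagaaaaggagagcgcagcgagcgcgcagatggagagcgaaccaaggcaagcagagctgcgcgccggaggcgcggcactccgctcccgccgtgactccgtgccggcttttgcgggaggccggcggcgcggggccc
Ak1, chr2:32621508-32621757, plus strand: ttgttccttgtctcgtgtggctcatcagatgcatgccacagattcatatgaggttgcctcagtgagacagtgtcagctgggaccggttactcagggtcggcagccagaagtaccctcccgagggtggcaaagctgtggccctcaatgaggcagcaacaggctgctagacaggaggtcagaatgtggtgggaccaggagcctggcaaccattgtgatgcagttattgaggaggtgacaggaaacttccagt

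Nampt, Heg1 and Zmiz1 each held 1 RBPJ match, and Ecsit, Mei4 and Ak1 held none of the 4 motifs in this window. An RBPJ match was in 21.5% of 27025 genes with a promoter, in 9 of the 38 higher and in 10 of the 38 lower contact-only genes that had one. An E-box was in 6.05% of all, in 7 of the 38 higher and in 4 of the 38 lower genes. AP-1 was in 6.87% of all, in 3 and in 2 genes. TEAD was in 12.6% of all, in 2 and in 4 genes. These shares are a description.

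The first of the higher contact-only genes, Nampt, makes the NAD precursor nicotinamide mononucleotide. It stood at 213 (E), 223 (H) and 222 (V) CPM in coculture, and at 128 (K), 127 (M), 149.9 (N) and 168 (T). In mono-culture its range was 130.1 to 149 in group 1 and 113 to 132 in group 2. Nampt already leaned the same way before contact, at means of 140.4 and 119.7 CPM, where only N of group 2 stood above a group 1 clone, V. After contact the group means were 1.53-fold apart (coculture log2 fold change 0.62 ± 0.15 (SE), edgeR adjusted p = 0.581). Single coculture libraries ran from 178 to 268 with a median of 219 in group 1 and from 104 to 204 with a median of 134 in group 2, so they overlapped. Ecsit, an assembly factor of respiratory complex I, stood at 11.7 (E), 11.8 (H) and 13.7 (V) CPM, and at 5.9 (K), 5.85 (M), 9.32 (N) and 8.47 (T). Its mono-culture ranges were 4.92 to 7.72 and 5.31 to 9.6. All 3 group 1 clones rose by 0.60 or more on the log2 scale, while group 2 clones moved by -0.09 to 0.40 (interaction 0.95 ± 0.27 (SE), edgeR adjusted p = 0.581). Chchd10, a small protein of the mitochondrial intermembrane space, ran from 11.9 to 20.3 CPM in group 1 and 4.3 to 11.4 in group 2 after contact, and the order of the means was the opposite before it, 3.01 ± 3.06 against 6.74 ± 2.24 (SD, n = 3 and n = 4). Slc25a5, an ADP/ATP carrier of the inner mitochondrial membrane, reached 172 to 220.4 against 68.9 to 144 CPM. Dld, the shared dehydrogenase subunit of the pyruvate and oxoglutarate complexes, reached 189 to 278 against 87.1 to 181. Clpp, a protease of the mitochondrial matrix, reached 74.4 to 89.9 against 43.9 to 69.4. The last 3 were chosen after their values were seen.

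The other named genes on the higher side had varied roles. Rbm7, an RNA-binding subunit that guides the nuclear exosome, stood at 76.4 to 88.5 CPM in group 1 and 48.9 to 70.2 in group 2 in coculture. Dnajb9, a cochaperone of the endoplasmic reticulum, stood at 44.8 to 48.3 against 32.4 to 41.6, and it moved little in group 1 while each group 2 clone fell. Ubxn6, an adaptor of the VCP segregase, stood at 115 to 121 against 81.1 to 101. Mei4, known for meiotic double-strand breaks, rose in all 7 clones, to 17.1 (E), 6.64 (H) and 11.1 (V) CPM, and to 0.362 (K), 0.901 (M), 2.98 (N) and 5.29 (T). Spg21, Ccdc107 and 9130008F23Rik also met the rule, Spg21 only with TMM and not with RLE size factors. Among 76 cytosolic ribosomal protein genes, a family counted after its values were seen, 18 were higher in group 1 without overlap and none lower, against 4.57% of all genes on the higher side. Their median log2 fold change was 0.27 in coculture and 0.05 in mono-culture, and 4 of them, Rps3 and Rpl12 among these, were contact-only. With RLE size factors 17 were higher and 1 lower, against 4.08% and 5% of all genes, and none of the 4 met the contact-only rule. Ribosomal protein genes have many near-identical pseudogenes, and how the counting split such reads is not given in the sources used here.

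**Figure D3:**
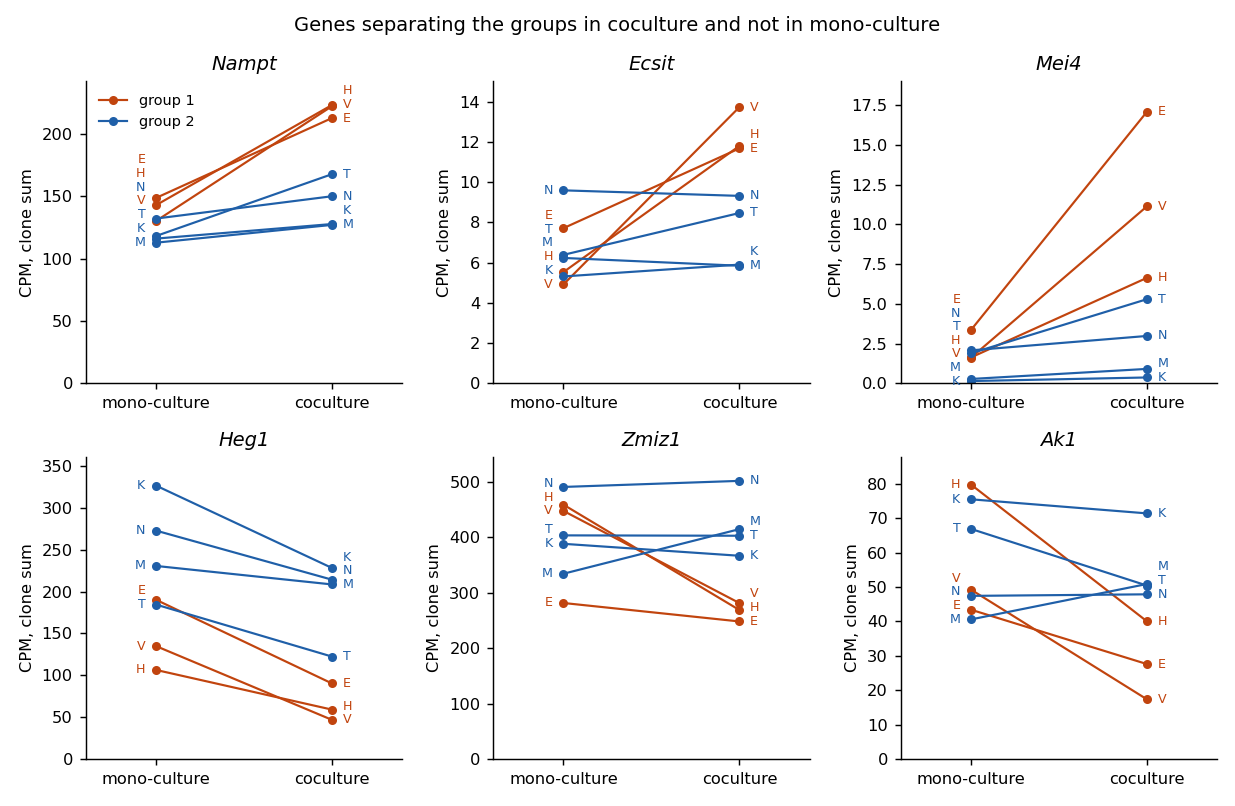
CPM of 6 contact-only genes in mono-culture and coculture, 1 line per clone sum, orange for group 1 and blue for group 2, with clone letters stacked where they would collide. In each panel the orange and blue points mix at the left or touch and stand apart at the right, where T or another blue clone stays close to the orange ones.

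The lower contact-only genes included a signal transducer, receptors and adhesion proteins. Smad3, which carries TGF-beta signals to the nucleus, was level in the clones grown alone. Its mono-culture values were 301 (E), 265 (H) and 305 (V) CPM, and 303 (K), 308 (M), 255 (N) and 289.7 (T). In coculture it stood at 154 (E), 157 (H) and 126 (V), and at 249.8 (K), 292 (M), 179.5 (N) and 199 (T). It fell in all 7 clones and further in each group 1 clone, so that the coculture log2 fold change was -0.66 ± 0.20 (SE) from 0.00 ± 0.14 (SE) in mono-culture (interaction -0.65 ± 0.17 (SE), edgeR adjusted p = 0.581). Single coculture libraries ran from 93.6 to 172 with a median of 154 in group 1 and from 132 to 326 with a median of 229 in group 2, and they overlapped. Heg1, a transmembrane protein of cell junctions, stood at 90.2 (E), 58.9 (H) and 46.7 (V) CPM, and at 228 (K), 209 (M), 214 (N) and 122 (T). Heg1 already leaned the same way before contact, at 106 to 190.3 against 185 to 327, where E stood above T. After contact its group means were 2.96-fold apart. Ddr1, a collagen receptor kinase, stood at 91.4 to 112 against 115 to 162 CPM. Ephb6, a kinase-dead Eph receptor, stood at 39.1 to 55.2 against 60.9 to 156, from 96.5 to 205 and 71.2 to 175 before contact. Myo18a, an unconventional myosin, stood at 137 to 173 against 176 to 288.

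Zmiz1, a coactivator with SUMO ligase-like domains, stood at 248 (E), 269 (H) and 281 (V) CPM, and at 367 (K), 415 (M), 502 (N) and 403 (T), from 282 to 459 and 335 to 491 before contact. Group 1 fell in all 3 clones and group 2 clones moved by -0.08 to 0.31 on the log2 scale. Ak1, a cytosolic adenylate kinase that balances ADP against ATP and AMP, stood at 27.6 (E), 40 (H) and 17.3 (V) CPM, and at 71.4 (K), 50.9 (M), 47.9 (N) and 50.4 (T). Its group means were level before contact, 57.5 ± 19.5 and 57.6 ± 16.3 CPM, and 28.3 ± 11.4 against 55.1 ± 10.9 after it (SD, n = 3 and n = 4, interaction -1.01 ± 0.24 (SE), edgeR adjusted p = 0.581). Zcchc24 stood at 73 to 109 against 125 to 289.9. Utp14b stood at 12.6 to 13.5 against 15.6 to 34.7, and as a retrocopy it shares sequence with its parent gene, so its counts are uncertain. The rule was met in each of 11 reduced sets, leaving out a clone or a replicate number, by 6 of the 111 genes: Ecsit on the higher side, and Ak1, Smad3, Zmiz1, Utp14b and Tmem2, a cell-surface hyaluronidase, on the lower. The fibroblast covariate, given further on, was not among these sets. DESeq2 called 17 of the 111 in coculture and 15 for the difference in response at an adjusted p under 0.1.

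A few lipid synthesis genes were on the lower side. Of 22 genes of cholesterol and fatty acid synthesis, 4 were contact-only and lower in group 1, against 0.753% contact-only among all genes and 4.6% lower without overlap, and none was higher. The list median was -0.23 in coculture and 0.13 in mono-culture. In mono-culture 2 members of the list were higher in group 1 without overlap and none lower. Srebf2, the main transcription factor of cholesterol synthesis, stood at 449 to 463 CPM in group 1 and 519 to 631 in group 2. Scd1 and Scd2, which desaturate fatty acids, stood at 537 to 735 against 772 to 999.7 and at 1899.8 to 2300.0 against 2382 to 4755. Elovl6, which elongates them, stood at 98 to 241 against 246 to 373. For these 4 genes the clones were 612 to 789.6 against 501 to 781, 908 to 1646 against 898 to 1342, 3564 to 6039 against 3975 to 5682 and 209 to 343 against 259 to 359 CPM before contact. For each of the 4 genes clone T of group 2 fell further on contact than 1 of the group 1 clones. The log2 responses were -0.47 (T) and -0.40 (H) for Srebf2, and -0.80 (T) and -0.55 (H) for Scd1. They were -1.05 (T) and -0.84 (H) for Scd2, and -0.55 (T) and -0.51 (E) for Elovl6. No gene of the list passed the adjusted test.

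In the other signaling, metabolic and matrix lists no member was called, and the values below are a description. Over all genes 4.57% were higher and 4.6% lower in group 1 without overlap, which is the share to read beside each count. Of 28 TGF-beta and BMP genes, 4 were lower in group 1 and none higher: Bmp4, Bmpr1a, Smad6 and Id3. Smad3, described above, was not a member of this list and is not in that count. The list median was -0.54 in coculture and -0.62 in mono-culture, beside -0.01 over all genes in each. Id3, a target of BMP signals, stood at 9.0 to 18.7 against 23.3 to 71.1 CPM in coculture and at 20.8 to 128 against 71.5 to 203 in mono-culture. Of 26 Wnt pathway genes Fzd7 and Lrp6 were lower. Fzd7, a Wnt receptor, stood at 25.4 to 76.5 against 89.5 to 246 in coculture, and its coreceptor Lrp6 at 122 to 150.3 against 169.9 to 183. Of 20 glycolysis genes, 3 were lower, Hk1, Pfkl and Aldoc, and none higher. Of 22 chemokines and cytokines Cxcl16, a transmembrane chemokine, was lower, at 3.24 to 16.8 against 30.6 to 33.4, and it was already apart in mono-culture, at 4.49 to 13.8 against 21.8 to 45.9. Of 26 semaphorin, plexin, netrin and Slit genes, Plxna2, Nrp2 and Unc5c were lower. Of 17 ephrin and Eph genes, Ephb6 and Efna5 were lower. Of 17 Notch genes, Hey1 was lower. Of 27 matrix proteases and inhibitors, Mmp19 and Timp2 were lower. Higher in group 1 were Pcdh18 and Gja1 of 16 cadherins, connexins and nectins, Fgf21 of 30 growth factors and receptors (Erbb2 and Fgfr3 were lower), and Col7a1, the anchoring fibril collagen, at 24.2 to 68.9 against 9.23 to 14.8 CPM. Among 29 matrix genes Col12a1 and Loxl1 were lower. Some members named here were low in coculture. Fgf21 stood at 0.315 to 0.492 against 0.0822 to 0.164 CPM, and Fgfr3 at 0.158 to 0.259 against 0.294 to 0.444. Hey1 stood at 0.172 to 0.398 against 0.475 to 1.31. Like Cxcl16, the clones were already apart the same way in mono-culture for Bmpr1a, Fzd7, Nrp2, Unc5c and Col7a1.

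Several lists had a median of the other sign in coculture than in mono-culture. Those given here had no member keeping the groups apart in coculture. Of 25 integrated stress response genes, 21 had a positive log2 fold change in coculture, with a median of 0.43 from -0.20 in mono-culture. Of 25 interferon-stimulated genes, 17 were positive, with a median of 0.68 from -0.52, and 4 of them had been lower in group 1 without overlap in mono-culture. Of 17 MAPK output genes, 6 were positive, with a median of -0.21 from 0.08. Over all genes the median was -0.01 in each culture. Among 13 ductal genes no member separated the clones in coculture either.

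Genes nearly silent in mono-culture, under 0.5 CPM in all 7 clones, are set apart here, since most had few counts in coculture, and the part of carried fibroblast RNA in them was not tested. There were 1100, and 95 separated the groups in coculture, 43 higher and 52 lower in group 1. That was 8.64% of the silent genes, beside 9.22% of the others. Of the 95, 81 stayed under 1 CPM in both groups. A gene of this kind passed the filter on low counts through the clones where it was high, so the count supports nothing on its own. Those with the widest gap were at the edge of detection. Rarres1 had 2, 0 and 1 counts in the group 1 clones, and 16, 10, 9 and 16 in the group 2 clones, in the order above. Tnfrsf19, a TNF receptor family member, had 0, 0 and 1 counts, and 18, 11, 21 and 4. Prss35, Ism2 and the pseudogene Crry-ps followed on the lower side, none above 0.301 CPM in coculture, and Gm5529, Has2os, Adtrp, Gm14650 and C530050E15Rik on the higher side, none above 0.73.

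At 1 CPM or more in a group there were 88 silent genes, and 14 separated the groups, 12 of them lower in group 1, beside 9.17% separated and 4.6% lower over all genes. A member could enter through the group where it was high, so no weight is put on the count. They were named after their values were seen. Postn, a matricellular protein of activated fibroblasts and 1 of the 4 markers summed above, stood at 43 (E), 47 (H) and 43.5 (V) CPM, and at 75.1 (K), 52.1 (M), 66.3 (N) and 57.3 (T). Loxl1, a cross-linker of elastin, stood at 8.08 to 12.2 against 12.7 to 18.6, and Svep1, a large adhesion protein of mesenchyme, at 0.953 to 1.94 against 2.26 to 4.28. Itga8, an integrin of mesenchymal cells, stood at 0.476 to 0.66 against 0.883 to 1.97, and Gli2, a Hedgehog transcription factor, at 0.619 to 1.02 against 1.22 to 1.43. Tfpi, Lama2, Hoxb8, Sirpa, Npy1r, Mrgprf and Slc6a17 made up the rest of the lower side. The 12 lower genes, Postn among them, leaned the same way as the sum of the 4 defining markers, which rested on Postn and whose group means were 63 ± 5.17 and 85 ± 10.1 CPM (SD, n = 3 and n = 4). The exceptions were Crabp1, a retinoic acid binding protein, at 2.42 to 4.86 against 1.03 to 2.18 CPM, and Gpr141, an orphan receptor, at 1.51 to 4.87 against 0.147 to 1.33. Both were higher in group 1.

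**Figure D4:**
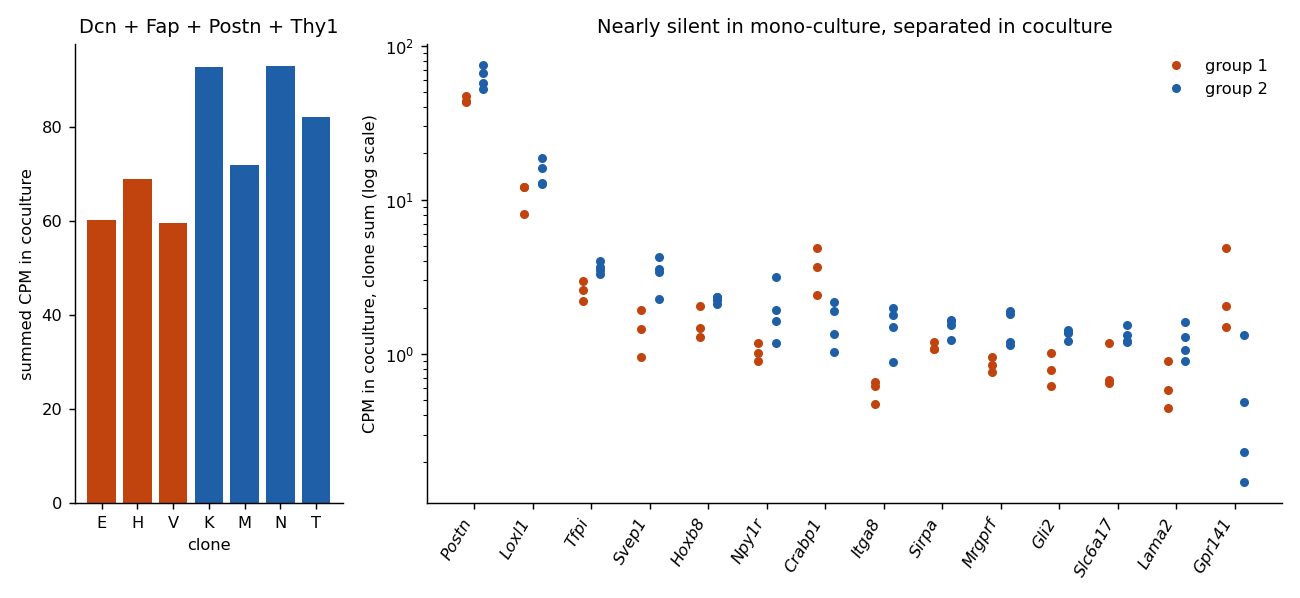
Summed CPM of Dcn, Fap, Postn and Thy1 in coculture by clone (left, bars) and coculture CPM of the 14 nearly silent genes that separated the groups at 1 CPM or more (right, log scale, 1 point per clone sum). Blue group 2 clones are higher in the marker sum and for 12 of the 14 genes, and orange group 1 clones are higher for Crabp1 and Gpr141.

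Some contact-only genes are also stromal. Cd248, an endosialin of pericytes and fibroblasts, was 0.245 to 5.0 CPM in group 1 and 0.103 to 0.727 in group 2 before contact, and 5.21 to 10.2 against 11.1 to 12.2 after it. Ogn, a small proteoglycan, was 0.13 to 2.48 against 0.0442 to 0.999 before contact, and 1.35 to 5.24 against 5.53 to 14.2 after it. Emilin1, a protein of elastic fibers, was 1.38 to 3.13 against 3.2 to 8.19 after it. These 3 were chosen after their values were seen, and all were lower in group 1. With the log2 marker sum as a covariate, all 20 named contact-only genes kept the sign of their coculture fold change, with a median of 0.62 from 0.65 on the higher side and -0.68 from -0.83 on the lower, and no gene was called. Single values moved more. Ak1 went from -0.96 to -0.34, Utp14b from -0.90 to -0.49, Ephb6 from -0.99 to -0.60 and Ubxn6 from 0.35 to 0.18, while Chchd10 went from 1.04 to 1.98. The marker sum itself kept the groups apart, and the 20 genes were chosen from these same values. The fit can therefore hardly part marker level from group. No conclusion is drawn from the kept signs, and the part of carried RNA was not tested.

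Separation was also lost on contact. Of 515 genes that separated the clones in mono-culture and overlapped in coculture, 80 had an interaction p under 0.05 unadjusted, 38 higher and 42 lower in group 1 before contact. Gpr124, a coreceptor of Wnt signals, stood at 18.3 to 49.8 against 8.97 to 13.1 CPM in mono-culture and at 18.2 to 27.5 against 19.2 to 25.4 in coculture. Glipr2 stood at 0.691 to 24.7 against 0.126 to 0.354, then 4.81 to 29.7 against 4.03 to 6.88. Acot2, a mitochondrial acyl-CoA thioesterase, stood at 0.547 to 3.52 against 5.84 to 19.9, then 3.55 to 41.2 against 5.98 to 24.9. Ankrd6, Pdzd7 and 9130206I24Rik also met the rule. Other genes separated the groups in both cultures. Il22ra1, a receptor for interleukin-22, stood at 0.238 to 0.415 against 1.86 to 3.03 CPM in coculture (log2 fold change -2.89 ± 0.37 (SE)). Gpa33, an epithelial surface antigen, stood at 0.0318 to 0.086 against 0.412 to 0.754. Nipsnap1, a mitochondrial matrix protein, stood at 51.8 to 72.2 against 18.3 to 30, Slc9a7, a Golgi sodium-proton exchanger, at 1.09 to 4.52 against 0.0317 to 0.23, and Tfcp2l1, an epithelial transcription factor, at 1.11 to 8.91 against 0.184 to 0.576.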

How the data were processed

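RNA was sequenced from poly(A)-selected, strand-specific libraries of tumor clones in mono-culture or sorted from coculture. The authors deposited raw read counts per gene for 64 libraries, and the submitters' processing notes name featureCounts, edgeR and the mm10 build. The aligner, the annotation and whether counting used strand are not given in the sources used here. The authors also deposited RPKM values per gene, used here in an alternative.

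Groups came from the study's naming of the clones. Counts were summed over the 4 libraries of each clone in each culture, and genes were filtered with filterByExpr (edgeR 4.0.16, R 4.3.3, minimum count 10) on the 7 coculture sums, which left 14737 of 39017 genes. Groups were compared with edgeR's quasi-likelihood test after TMM scaling, separately in each culture, and the difference in response with a model of clone, culture and group by culture on 14 sums. P-values were Benjamini-Hochberg adjusted over all genes, with a threshold of 0.1. The SE of a fold change is its size over the square root of the F statistic. CPM values used TMM factors, and log2 gaps and responses added 0.05 CPM. P-values measure the spread between these clones. Library sums of 50982766 counts or more per clone put 3 counts at or under 0.0588 CPM, which covers counting error only. On simulated counts with 200 genes changed 8-fold among 14737, 100% were recovered in each of the 3 comparisons, with 10 to 22 false calls. The simulation gave every gene the same dispersion and changed only genes with high counts. It does not give the power for smaller changes or for genes with a wider spread between clones.

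Genes were named as those past the threshold, up to 10 per direction of the contact-only genes with the smallest interaction p (protein-coding, at least 1 CPM), 5 per direction of the silent genes with the widest gap, 3 per direction separated in both cultures (by coculture p) or only in mono-culture (by interaction p), and list members that did not overlap. The members and lists were chosen with earlier results of these data known. Promoters were read from RefSeq (GRCm38.p6), and 38 of the 53 and 38 of the 58 contact-only genes had one by symbol. Alternatives covered scaling, filters, thresholds, DESeq2 1.42.0, limma 3.58.1 on single libraries or RPKM, a fibroblast covariate, and leaving out each clone, replicate number or series of sample numbers. The ribosomal protein family was also counted with RLE size factors, chosen after seeing the data. No 2 libraries agreed within sampling noise. Some items are not reported here.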

Additional observations from a re-analysis of the deposited data

Results flagged for a closer look

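In 2 of 50 sets of 4 values checked, 1 value stood far from the other 3, and chance alone gives about 1 in 20. The sets were the 4 group 2 clones in coculture for each named gene, and the 4 coculture libraries of each clone for the fibroblast marker sum. Both flagged sets were of group 2 clones. Ak1 was 71.4 CPM in clone K and 47.9 to 50.9 in M, N and T. C530050E15Rik was 0.247 CPM in K and 0 to 0.0328 in the others.

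The difference in response between the groups was -1.55 on the log2 scale for Adamts9 and passed the edgeR test over all genes. For Gpr124 the 4 group 2 clones moved up, by 0.71 to 1.33, and the group 1 clones had values of the other sign, -0.56 in H, -0.88 in V and -0.0048 in E, which is no movement. Its interaction of -1.50 failed the adjustment.

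Outside the group comparison, KPC1 in coculture held 64 CPM of the summed fibroblast markers, and 0.0760 CPM in mono-culture.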

How the results depend on the processing

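The Cd34 call was kept in every setting run but 2: without clone V (adjusted p = 0.217) and with the fibroblast covariate (adjusted p = 0.765, 0 genes called), in edgeR. Limma on log2 RPKM, with 1 or 0.1 added, called 1 gene in coculture. The counts changed most with the clones kept and with the tool, and the cause was not tested. Leaving out a clone gave 0 to 19 genes in coculture, 0 to 189 in mono-culture, 0 to 44 for the response, 37 (without V) to 524 (without T) contact-only genes and 121 to 308 silent genes. Leaving out a replicate number gave 0 to 2 genes for the response, 51 to 180 contact-only and 56 to 66 silent genes. DESeq2 called 193, 125 and 190 genes in the 3 tests. Series A, the libraries numbered up to 43, gave 2 genes in mono-culture, 0 for the response and 23 contact-only genes. These fits had no clone K, whose mono-culture libraries were all in series B. Series B gave 15 genes in coculture, an alternative chosen after seeing the data, and had no clone E. Of the mono-culture libraries, 11 were in series A and 1 in series B in group 1, and 9 and 7 in group 2.

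Without a low-count filter there were 5 genes for the response and 395 silent genes, and with a 1 CPM filter 14 silent genes. An adjusted p under 0.05 left 0 genes for the response. An interaction p under 0.01 left 15 contact-only genes, and no overlap among single libraries left 0. Silence below 0.25 or 1 CPM gave 43 or 178 silent genes. RLE size factors gave 105 contact-only genes, 94 shared with the 111, split 37 higher and 68 lower. The marker difference was -0.51 without Thy1 (exact p = 0.0286), -0.27 without Postn (exact p = 0.257, clones overlapping) and -0.08 over the whole list (exact p = 0.914). Signs of the coculture fold change turned for Gpr124, from 0.092 to -0.0094 without clone H and -0.019 with the covariate (-0.0094 to 0.26 over clones left out), for Adamts9, from -0.66 to 0.033 without clone M (-0.97 to 0.033), and for Pdzd7, from 0.49 to -0.069 in series B. Among values of single genes, 688 kept their direction and side of the threshold, 13 newly passed it and 2 no longer did.

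Single libraries with clone as a random effect gave 93 genes in coculture and 76 with the replicate block, and 521 and 550 for the response. Nothing in the labels ties a replicate number to a shared day, and of the 28 coculture libraries 22 correlated best with their own number, with r from -0.29 to 0.39 between same-numbered libraries of different clones.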

Other observations

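KPC1, the line of the series that belongs to neither group, was not used to choose any gene. In coculture it stood within or beyond the group 1 range for 9 of the 10 named higher contact-only genes and for 7 of the 10 named lower ones. The share over all genes was not counted, so no weight is put on these counts. Before contact KPC1 was already above every clone for some of them, as for Rbm7 at 80.6 CPM against at most 60.8. For others, such as Ecsit, it was within the range of the clones. Nampt was 218 CPM in KPC1 after contact and 159 before it, and Ecsit was 13.4 and 8.86. Chchd10 was 46.6 and 13.7. Ak1 was 29.8 and 51.1, and Elovl6 was 201 and 320.1. Exceptions were Ubxn6, Smad3 and Zmiz1, which fell between the groups, and Zcchc24 at 129 CPM, which was in the group 2 range. Cd34 was 42.4 CPM in KPC1 in coculture, just under the group 2 minimum of 45.9 and far above the group 1 maximum of 3.48, and 67.5 before contact. CPM here were scaled over all 8 lines. These are values of 1 line with no test.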
